A study of Homo sapiens with 20 samples.

Results

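The WNT pathway genes described here are RNF43 and 9 others that feed back on, carry or read out WNT signalling (ZNRF3, AXIN2, NKD1, LGR5, SP5, ASCL2, TCF7, LEF1 and TCF7L2). They are 10 of the 20007 protein-coding genes examined and were listed by name, with earlier results of these data known. For each gene, the peaks and super-enhancers that overlapped its GENCODE gene body plus 10 kb on each side were collected, and this stretch is called the window of the gene. H3K27ac, the acetylation of lysine 27 of histone H3 at active promoters and enhancers, was mapped by ChIP-seq in HCT-116, a colorectal cancer line. The cells were wild type (WT) or FBXW7-/- (KO), that is, without the ubiquitin ligase subunit FBXW7. Per the study's methods both were purchased lines, so the KO stands for 1 engineered line. Cells of either genotype were transfected for 48 h with endoribonuclease-prepared siRNAs, either the control (esiCT) or ones against the deacetylase HDAC4 (esiHDAC4). They were then left untreated (UNT) or exposed to 50 µM of the DNA-crosslinking drug oxaliplatin (OXPT) over the last 24 h. This gave 8 groups with replicates A and B, or 16 libraries. The labels mention 3 experiments that were combined, without saying how they relate to the letters, so p-values here measure only the spread between these libraries, which may be in part technical.

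In the absence of WNT, a destruction complex that includes AXIN proteins marks β-catenin for degradation. WNT binding to Frizzled and LRP receptors stops this, and β-catenin then joins TCF/LEF factors on DNA and switches on target genes. Several targets are brakes on the pathway: RNF43 and ZNRF3 are membrane ubiquitin ligases that remove Frizzled receptors, and R-spondins, bound by LGR5, take them away. HCT-116 carries an activating mutation of the β-catenin gene CTNNB1 on one allele, and inactivating mutations of RNF43, so that acetylation at RNF43 does not speak for a working protein. H3K27ac reports the state of chromatin and not the amount of RNA or protein.

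TCF/LEF factors recognise the letters CTTTGAT, and 7-letter matches on either strand (CTTTGAT or its complement ATCAAAG) were searched. The search covered peak regions merged across libraries, stretches around their summits and promoter sequences. The rest of each gene's window was not searched, so copies outside these stretches are not known. The sites below are hg38 and are written 5′ to 3′ along the strand of their gene, with the match in capitals. They are examples from the acetylated elements on which the results turn, and not every copy is printed. Those shown at RNF43 and TCF7L2 were covered by a peak in at least 12 of the 16 libraries. At RNF43, 10 copies had such coverage, and some of these are not shown. A match is a description of the letters and was not tested for binding.

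RNF43, exon, 1.0 kb from the start, chr17:58416519-58416545, under a peak in 15 libraries: ctcatgggaaATCAAAGtgctcggcat
RNF43, exon, 1.51 kb from the start, chr17:58416007-58416033, 14 libraries: tcacgctcacCTTTGATgcatggcctt
RNF43, intron, 3.95 kb from the start, chr17:58413568-58413594, 15 libraries: aaactattaaCTTTGATcctatcatta
RNF43, intron, 14.2 kb from the start, chr17:58403324-58403350, 13 libraries: gttgttggacATCAAAGaaagtttgga
RNF43, intron, 26.9 kb from the start, chr17:58390654-58390680, 12 libraries: gtatgctggtATCAAAGgatggtgcag
TCF7L2, intron, 3.35 kb from the start, chr10:112953580-112953606, 16 libraries: gaatattgagCTTTGATggcgggcttg
TCF7L2, intron, 4.28 kb from the start, chr10:112954510-112954536, 16 libraries: ttaatttagtCTTTGATtcagtaatag
ZNRF3, intron, 149.0 kb from the start, chr22:29032339-29032365, 11 libraries: tttcagagagCTTTGATatccagagat
AXIN2, intron, 0.865 kb from the start, chr17:65560770-65560796, 9 libraries: ggaccgcgcgCTTTGATgtgcggggcg

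The 22.6 kb element at the start of RNF43 held 12 copies of the motif, 5 forward and 7 reverse, which is 0.53 per kb. Over all 58860 merged peak regions of the series the density was 0.12 per kb, and over the 472 regions called in all 16 libraries it was 0.17 per kb. Base composition differed as well, since G and C made up 36.8% of the RNF43 element, 50.3% of all regions and 43.2% of the regions called in all libraries. Among the 127 regions of at least 10 kb called in all libraries the median density was 0.166 per kb and the highest 0.563, and 2 of them, RNF43 included, reached that of RNF43. A second RNF43 element of 3.65 kb held 2 more copies. Of these 14 copies, 10 were covered by a peak in at least 12 libraries, and the coverage ran from 4 to 15 libraries. The AXIN2 start element held 3 copies, the TCF7L2 start element 2 and the strongest ZNRF3 element 2.

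Promoter sequences were matched for 5 of the 10 genes in the RefSeq table (GRCh38.p14). SP5, a transcription factor induced by WNT, was the 1 of the 5 with a motif in its window of 250 bases before and 50 after the start, while RNF43, TCF7, LEF1 and TCF7L2 had none. Across 27305 promoter windows 2.64% held the motif. Of the 76 promoter windows matched for a wider list of WNT pathway genes, 0 did. The bases before the SP5 start, chr2:170715087-170715336 on the plus strand, are given because they hold this motif and no library had a peak over them. The only SP5 peak, in 1 library, lay just downstream, as described further on.

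SP5 promoter: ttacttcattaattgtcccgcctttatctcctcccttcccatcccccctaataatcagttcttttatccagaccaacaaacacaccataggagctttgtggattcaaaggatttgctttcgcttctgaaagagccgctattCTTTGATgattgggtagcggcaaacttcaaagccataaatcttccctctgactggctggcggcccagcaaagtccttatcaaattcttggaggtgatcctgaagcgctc

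The libraries differed widely in list length, and this bears on every count of peaks. The peak lists held 1752 to 27927 peaks and the super-enhancer (SE) lists 66 to 1265 SEs. KO replicate B libraries held 1752 to 8216 peaks, KO replicate A 12639 to 21875, WT replicate B 10562 to 27335 and WT replicate A 20136 to 27927. Read totals are not part of the lists, and depth shows only through the reads behind each peak. FBXW7, the gene inactivated in KO by a deletion within it, had a peak in its window in 7 WT and 3 KO libraries. HDAC4 had 2 to 17 peaks with esiCT and 1 to 15 with esiHDAC4. Neither count tests the knockout or the silencing. Of 10 colorectal epithelial markers, 6 had a peak in at least 15 libraries, and of 10 markers of other cells (leukocyte, endothelial, fibroblast, hepatocyte) 0 did. Per library, 2 to 9 epithelial markers and 0 to 7 markers of other cells had a peak.

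Of the 10 genes, 2 (RNF43 and TCF7L2) had a peak in all 16 libraries, ZNRF3 had one in 15 and AXIN2 in 14. The other 6 genes had a peak in at most 4 libraries each, with LEF1 in 4, NKD1, LGR5 and ASCL2 in 3, TCF7 in 2 and SP5 in 1. SEs were called at 3 genes, RNF43 in 16 libraries, TCF7L2 in 15 and ZNRF3 in 8. The remaining 7 genes, AXIN2 included, had no SE in any library. As background, 484 of the 20007 genes had a peak in every library, 24 had an SE in every library and 277 had one in at least 8. A peak in 1 to 4 libraries was found at 3345 of the 20007 genes, and 4190 had no peak in any library.

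**Figure D1:**
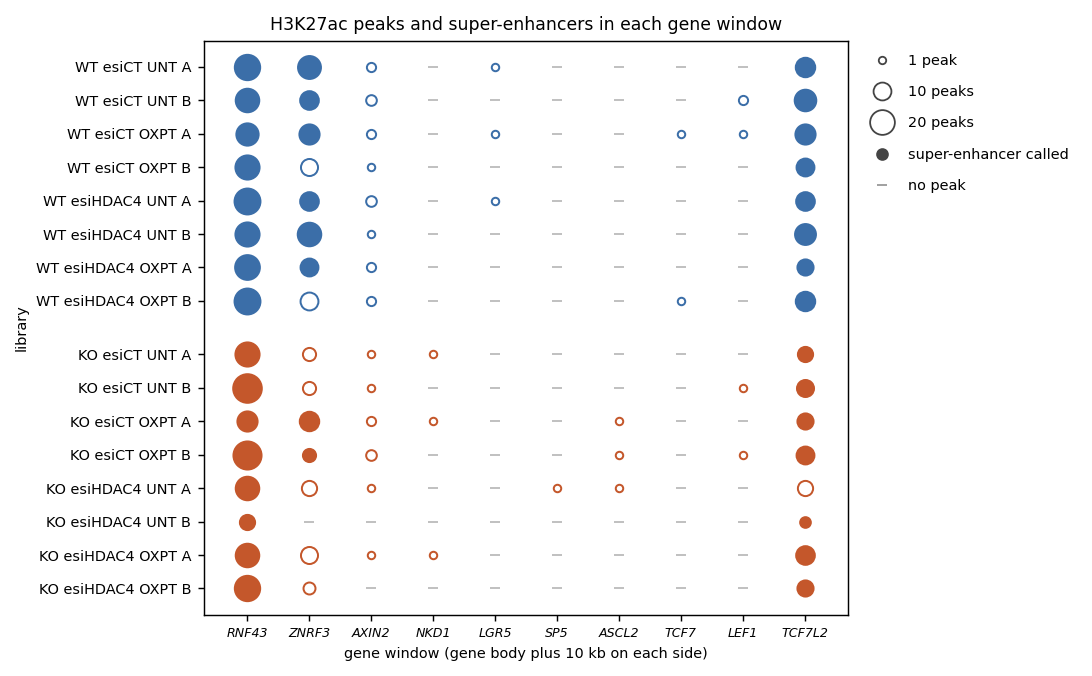
Peaks and SEs in the window of each of the 10 genes (horizontal axis) in each of the 16 libraries (vertical axis), with circle area growing with the number of peaks, filled circles where an SE was called and dashes where no peak was called. The RNF43 column is filled in all 16 libraries and the 6 columns from NKD1 to LEF1 are mostly empty, with peaks in at most 4 libraries each.

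RNF43 (ENSG00000108375.13, minus strand, chr17:58353676-58417595) was among the genes with the most acetylation peaks in these cells. It gathered 306 peaks over the 16 libraries, and 18 genes had a higher median number than its 19 per library. In WT replicate A the numbers were 21 (esiCT UNT), 16 (esiCT OXPT), 22 (esiHDAC4 UNT) and 20 (esiHDAC4 OXPT), and in WT replicate B 18, 19, 19 and 22 in the same order. In KO replicate A they were 19, 13, 18 and 18, and in KO replicate B 27, 26, 7 and 21. The lowest number, 7, came from the shortest list, and the highest, 27 and 26, came from KO libraries with lists of 6126 and 8216 peaks. The genotypes overlapped fully. The window also holds the start of SUPT4H1 near the 3′ end of RNF43, and without peaks at that start the numbers ran from 7 to 26.

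The acetylation of RNF43 was densest over the first 30 kb of the gene. The 306 peaks merged into 14 regions, 2 of which were called in all 16 libraries. The larger (chr17:58394867-58417497, 22.6 kb, exon and intron) ran from 0.04 to 22.67 kb downstream of the start and took 4 to 14 peaks per library, with a highest fold over local background of 4.53 to 9.36. The smaller (chr17:58387874-58391525, 3.65 kb, intron) lay 26.01 to 29.66 kb downstream, with folds of 3.62 to 6.5. Between them an intronic region (chr17:58391852-58394616, 2.77 kb) was called in 15 libraries. Upstream of the start, a region from -1.48 to -0.3 kb (chr17:58417831-58419018) was called in 13 libraries. The 333 bases between it and the large element, which hold the start site itself, had no peak in any library. Peaks covered 3.33 to 36.8 kb of the window, with a median of 23.6 kb.

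The smaller of the elements called in every library is shown by 300 bases around the summit of its highest peak, which was in KO esiHDAC4 OXPT B. These are intronic bases on the minus strand at chr17:58390904-58391203, 41.7% G and C, without the motif.

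RNF43 intronic summit: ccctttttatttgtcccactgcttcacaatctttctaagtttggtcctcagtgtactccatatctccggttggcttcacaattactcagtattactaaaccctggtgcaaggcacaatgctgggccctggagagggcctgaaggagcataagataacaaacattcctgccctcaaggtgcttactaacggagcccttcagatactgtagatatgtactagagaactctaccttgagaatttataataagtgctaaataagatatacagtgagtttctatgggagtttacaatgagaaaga

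**Figure D2:**
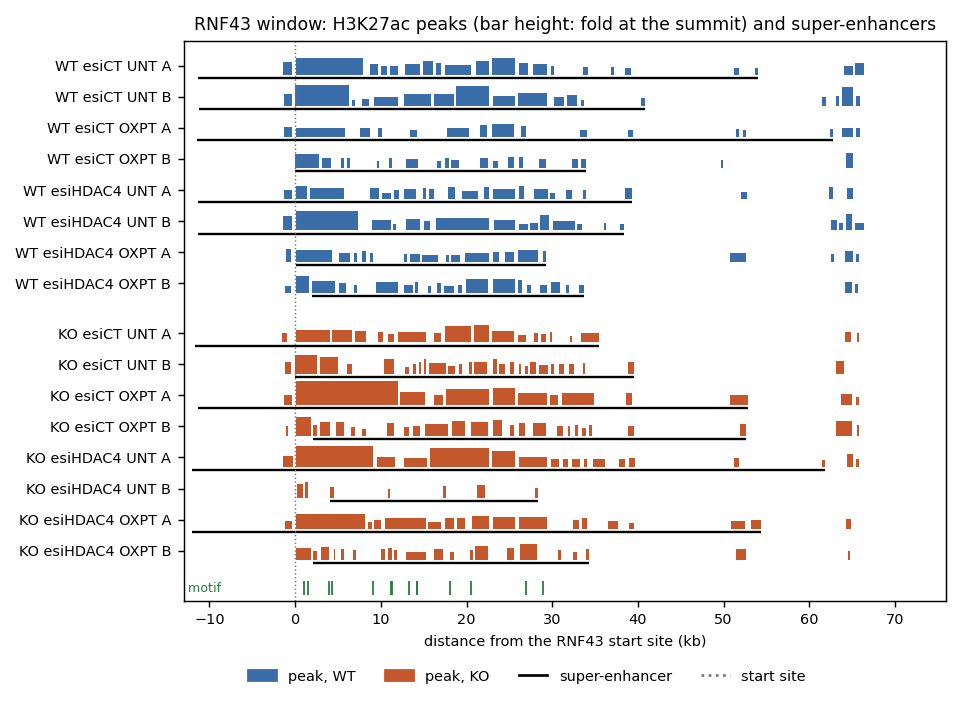
RNF43 peaks by distance from the start site in kb (horizontal axis, gene body to the right of 0) in each library (vertical axis), where bar height is the fold at the summit, the black line below the bars is the SE and green ticks mark the 14 motif copies in the elements called in all libraries. Peaks crowd from 0 to about 30 kb in all libraries, including the shortest list (KO esiHDAC4 UNT B), whose SE of 24.3 kb lay within this stretch.

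Every library had 1 SE at RNF43, spanning 24.3 to 74.2 kb and covering 38.0% to 98.3% of the gene body. The span had a median of 50.2 kb in WT (29.2 to 74.2) and of 48.8 kb in KO (24.3 to 73.8), so the genotypes overlapped throughout. A core of 24.3 kb (chr17:58389208-58413479) belonged to the SE of all 16 libraries. In 9 libraries, 5 WT and 4 KO, the SE went past the RNF43 start to the neighbouring gene HSF5. In KO these were all 4 replicate A libraries and 0 of the replicate B libraries, and in WT 3 replicate A and 2 replicate B libraries, which goes along with the shorter lists of KO replicate B. By treatment, the SE reached HSF5 in 4 of 4 untreated WT libraries (spans 49.7 to 65.4 kb) and in 1 of 4 with OXPT (29.2 to 74.2 kb), and in 2 of 4 KO libraries either way (24.3 to 73.8 kb untreated, 32.3 to 66.5 kb with OXPT). By silencing, the span ran from 33.9 to 74.2 kb with esiCT and from 24.3 to 73.8 kb with esiHDAC4. SE span was not tested, nor was the part of list length in it.

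The highest summit fold at RNF43, the pileup at the strongest summit over its local background, ran from 5.23 to 9.36. In WT replicate A it was 6.99 (esiCT UNT), 5.3 (esiCT OXPT), 5.32 (esiHDAC4 UNT) and 5.23 (esiHDAC4 OXPT), and in WT replicate B 8.28, 5.97, 7.62 and 6.65. In KO replicate A it was 6.9, 9.36, 8.26 and 6.15, and in KO replicate B 7.29, 7.63, 6.54 and 6.5. The means were 6.42 ± 1.16 in WT and 7.33 ± 1.07 in KO (SD, n = 8 each), and the ranges overlapped. The summit lay within 5 kb of the start in 11 of 16 libraries. In WT esiCT OXPT B (5.97) it lay 64.51 kb from the start, at the start of SUPT4H1. The 22.6 kb element had a fold of 5.61 in that library. In pooled cells, fewer cells with the mark and less of it per cell cannot be told apart. Between 21 and 53 reads stood at this summit in the 15 libraries where whole reads could be recovered, over a background of 2.36 to 6.51 reads.

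Folds as deposited moved with the library as a whole, since the median fold of the 484 genes with a peak in every library ran from 4.96 to 7.67. Each log2 fold was therefore centred on that median. Centred values of RNF43 were -0.13, -0.1, -0.26 and -0.09 in WT replicate A (groups in the order above), and 0.29, 0.27, 0.26 and 0.28 in WT replicate B. In KO replicate A they were 0.23, 0.59, 0.39 and 0.22, and in KO replicate B 0.44, 0.43, 0.38 and 0.28. WT libraries thus fell apart by replicate letter, with all 4 A libraries below 0 and all 4 B libraries above it, and KO libraries were all above 0. The KO mean was 0.37 ± 0.124 and the WT mean 0.065 ± 0.23 (SD, n = 8).

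By genotype, the centred RNF43 fold was 0.31 higher on the log2 scale in KO than in WT (SE 0.097, 95% interval 0.1 to 0.51), which did not pass the threshold after Benjamini-Hochberg adjustment (limma, adjusted p = 0.118 over 484 genes). Without regard to RNF43 this comparison called 0.207% of the genes tested, 1 of 484. RNF43 was higher in KO at an unadjusted p under 0.05, as were 10.3% of the 484 genes tested. Within the letters the difference was 0.5 among A libraries and 0.11 among B libraries. Folds without centring gave a difference of 0.2 with an adjusted p of 0.313 (limma). A wider fit over 10411 genes with a peak in at least 8 libraries, in which missing values were set to the lowest fold of a list, gave the same difference with an adjusted p of 0.0462 (limma), in a fit that called 13.8% of its genes. Across the alternatives run, leave-one-out fits aside, the adjusted p ranged from 0.0462 to 0.313. Of the genes with a peak in a library (992 to 13505), the share with a higher fold than RNF43 was 1.8% to 34.8% in WT (median 13.3%). In KO it was 0.119% to 5.75% (median 2.85%). The WT values split by letter, with 21.3% to 34.8% in replicate A and 1.8% to 5.27% in replicate B. Those of WT replicate B thus lay inside the KO range.

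**Figure D3:**
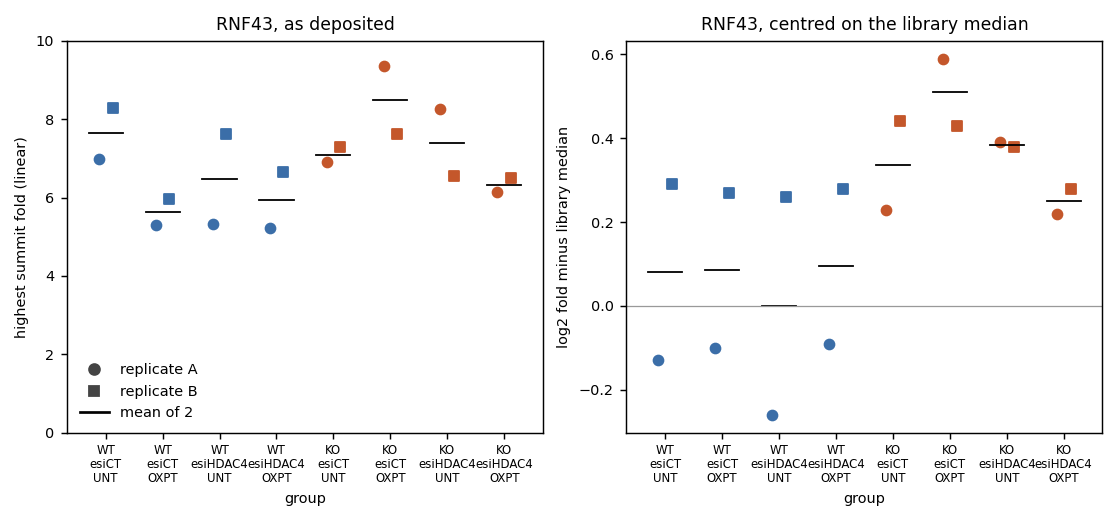
Highest summit fold at RNF43 as deposited (left, linear axis from 0) and as log2 fold minus the library median (right) in each of the 8 groups, with circles for replicate A, squares for replicate B, blue for WT, orange for KO and a line at the mean of 2. On the right the WT circles sit from -0.26 to -0.09, the WT squares from 0.26 to 0.29 and the KO points from 0.22 to 0.59. The WT esiCT OXPT square stands for a summit at the start of the neighbouring gene SUPT4H1.

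OXPT and HDAC4 silencing left the RNF43 fold without a change that passed the test. Averaged over the other factors, the log2 difference was 0.033 with OXPT (95% interval -0.17 to 0.24, limma adjusted p = 0.975) and -0.068 with esiHDAC4 (interval -0.27 to 0.13, adjusted p = 0.954). In these comparisons 0 of 484 genes (0%) passed the adjusted threshold, with 30 and 17 at an unadjusted limma p under 0.05. In esiCT cells the OXPT difference was 0.007 in WT and 0.17 in KO, and the gap between them, 0.16, had an interval of -0.41 to 0.73 (limma adjusted p = 0.943). In OXPT-treated cells the esiHDAC4 difference was -0.26 in KO (interval -0.66 to 0.15) and 0.01 in WT (interval -0.39 to 0.41). In untreated esiCT cells alone KO exceeded WT by 0.26 (interval -0.14 to 0.66, limma adjusted p = 0.715). With 2 libraries a group these intervals are wide, and differences of about 0.4 on the log2 scale lie inside several of them.

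The same held when the highest fold within each element was compared. This does not fix the position inside the 22.6 kb element. Its highest summit lay 21.88 kb from the start in KO esiCT UNT A and 1.45 kb from it in KO esiCT OXPT A. The 22.6 kb element was 0.28 higher in KO on the centred log2 scale (SE 0.111, limma adjusted p = 0.132 over 472 regions). This fit called 14 regions, 2.97%, and 11.7% were higher in KO at an unadjusted p under 0.05. The 3.65 kb element did not share that direction, at -0.072 for KO against WT (SE 0.109, limma adjusted p = 0.745). Its fold was 4.9, 5.26, 4.34, 4.38, 5.31, 6.18, 4.65 and 4.96 in the WT libraries (esiCT UNT A and B, esiCT OXPT A and B, then esiHDAC4 in the same order). In KO libraries it was 3.62, 4.79, 4.59, 5.1, 3.88, 3.81, 4.79 and 6.5. With OXPT the 3.65 kb element differed by 0.22 (SE 0.109, limma adjusted p = 0.642), and the 22.6 kb element by -0.051 (adjusted p = 0.961, limma, with 0% of regions called).

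The number of RNF43 peaks did not separate the genotypes, with a mean of 18.6 ± 6.52 in KO and 19.6 ± 2.07 in WT (SD, n = 8, difference -1.0, two-sided exact permutation p = 0.767). Of the 13778 genes tested, 25.5% had fewer peaks in KO at an unadjusted p under 0.05, so RNF43 was with the larger part of the genes, and 0% passed after adjustment. As a share of the peaks of a library, RNF43 took 0.0657% to 0.18% in WT (median 0.0872%) and 0.0594% to 0.441% in KO (median 0.233%), with 0.316% to 0.441% in KO replicate B. OXPT and esiHDAC4 differed from their controls by 0.5 and -1.5 peaks (exact permutation p = 0.9 and 0.634).

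When each list was shortened to its 1752 strongest peaks, the length of the shortest one, the mean number of RNF43 peaks was higher in KO than in WT, without passing the adjusted threshold. WT libraries kept 2, 3, 1, 5, 1, 5, 2 and 5 peaks (A and B of esiCT UNT, esiCT OXPT, esiHDAC4 UNT and esiHDAC4 OXPT) and KO libraries 3, 12, 4, 10, 4, 7, 6 and 11. Within replicate A the ranges were 1 to 2 in WT and 3 to 6 in KO, and within replicate B 3 to 5 and 7 to 12, so that the genotypes did not overlap within a letter. The means were 3.0 ± 1.77 in WT and 7.12 ± 3.48 in KO, a difference of 4.12 (exact permutation p = 4.08e-04, the smallest these 4900 arrangements can give), which did not pass after adjustment over 3119 genes (adjusted p = 0.318). Of these genes 1.7% had more peaks in KO at an unadjusted p under 0.05. The adjusted p of the RNF43 number ranged from 0.318 to 1.0 over its alternatives, and its direction turned with list length, from -1.0 in whole lists to 4.12. The highest numbers came from the KO replicate B libraries, which had the shortest whole lists, and the part of list length in the difference was not tested. A count of peaks does not measure the length they cover. In whole lists KO esiCT UNT B had 27 peaks over 20.3 kb and KO esiCT OXPT A 13 over 36.8 kb. The mean length covered was 24.1 kb in WT and 32.8 kb in KO for replicate A. For replicate B it was 25.0 kb in WT and 15.9 kb in KO.

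**Figure D4:**
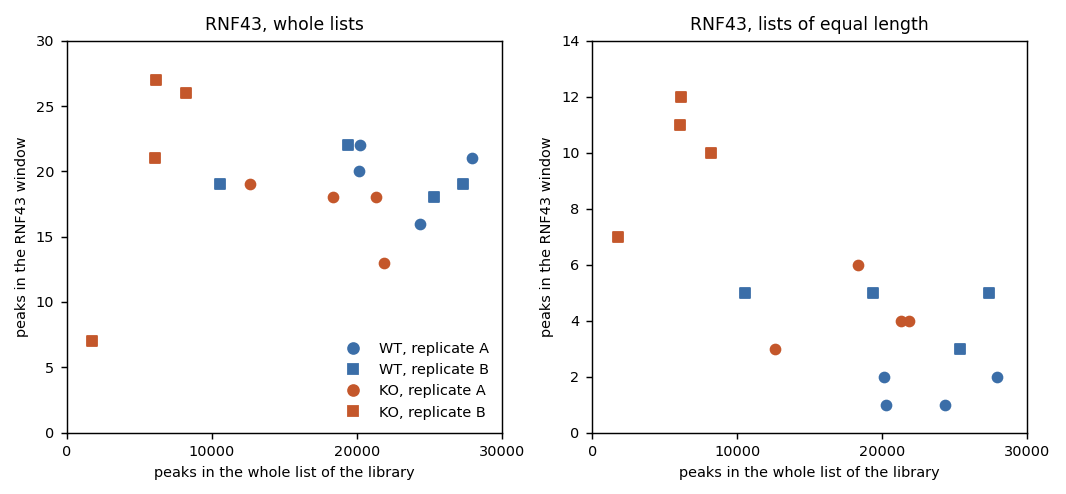
Peaks in the RNF43 window (vertical axis) against the length of the whole peak list of the library (horizontal axis), counted in whole lists (left) and in lists of 1752 peaks each (right), with circles for replicate A and squares for replicate B. The number in whole lists runs from 7 to 27, while in lists of equal length WT libraries have 1 to 5 and KO libraries 3 to 12 peaks, highest in the KO libraries with short lists.

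ZNRF3 (ENSG00000183579.16, plus strand, chr22:28883572-29057488), the close relative of RNF43 among membrane ubiquitin ligases, had most of its acetylation deep in its introns and averaged more peaks in WT than in KO libraries. WT libraries had 17, 11, 13, 9, 11, 18, 10 and 10 peaks and KO libraries 5, 5, 12, 5, 7, 0, 9 and 4, again as A and B of esiCT UNT, esiCT OXPT, esiHDAC4 UNT and esiHDAC4 OXPT. The ranges overlapped through KO esiCT OXPT A with 12 peaks. The mean was 12.4 in WT and 5.88 in KO, a difference of -6.5 that did not pass after adjustment (exact permutation p = 0.00163, adjusted p = 0.0734), in a comparison in which 25.5% of genes were lower at an unadjusted p under 0.05. It passed when 1 of 2 libraries was left out, at -7.0 without WT esiCT OXPT B (adjusted p = 0.0389) and at -7.12 without KO esiCT OXPT A (adjusted p = 0.0481). These fits called 9.35% and 4.94% of all genes, against 0% with all libraries. Over all leave-one-out fits the adjusted p ran from 0.0389 to 0.124. In lists of equal length the difference was -0.125 peaks (adjusted p = 1.0, with 0.0734 to 1.0 over the settings that kept all libraries). KO replicate B had the shortest lists, and the part of list length in the ZNRF3 difference of whole lists was not tested.

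The ZNRF3 element called in most libraries was intronic (chr22:29028685-29033909, 5.22 kb, 145.11 to 150.34 kb from the start), present in 15 libraries with folds of 3.95 to 8.73. It held the strongest summit of the window in 11 of them. Intronic regions at 119.86 kb (chr22:29003429-29006295) and 92.11 kb (chr22:28975686-28978266) were called in 13 libraries each. A region over an inner start site (chr22:28917179-28919226) was called in all 8 WT and in 4 KO libraries (exact permutation p = 0.0714, adjusted p = 0.378). A pair of further intronic regions, at 40.62 and 94.86 kb, were each called in 6 WT and 1 KO libraries (p = 0.0469, adjusted p = 0.344, exact permutation over 20090 regions). At an unadjusted p under 0.05, 13.6% of regions were called in fewer KO libraries, and 0% passed after adjustment. The outermost ZNRF3 start itself was flanked by peaks in few libraries, 6 within the gene and 5 upstream. The 300 bases around the highest summit of the element called in most libraries, found in WT esiHDAC4 OXPT A, lie in the intron at chr22:29031912-29032211 on the plus strand and hold no motif, the nearest copies being those counted above.

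ZNRF3 intronic summit: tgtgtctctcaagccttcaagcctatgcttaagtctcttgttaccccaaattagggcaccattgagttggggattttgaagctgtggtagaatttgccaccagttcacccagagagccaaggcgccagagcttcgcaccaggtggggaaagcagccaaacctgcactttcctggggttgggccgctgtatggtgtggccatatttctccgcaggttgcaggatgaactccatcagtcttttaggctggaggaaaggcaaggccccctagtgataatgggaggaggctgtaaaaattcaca

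SEs at ZNRF3 were called in 6 WT and 2 KO libraries (exact permutation p = 0.133, adjusted p = 0.681), beside 6.22% of 739 genes called in fewer KO libraries at an unadjusted p under 0.05 and 0% after adjustment. They were short, 3.61 to 22.3 kb. Of the 8, 6 lay over the elements about 92 kb from the start, 2 lay 20 to 44 kb from it and 0 included the element with the strongest summits. The highest summit fold in the window ran from 4.78 to 8.73 in WT and from 4.5 to 6.89 in the 7 KO libraries with a peak. In the fit over 5803 genes with a peak in at least 12 libraries it differed by -0.021 between KO and WT (SE 0.137, limma adjusted p = 0.954).

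**Figure D5:**
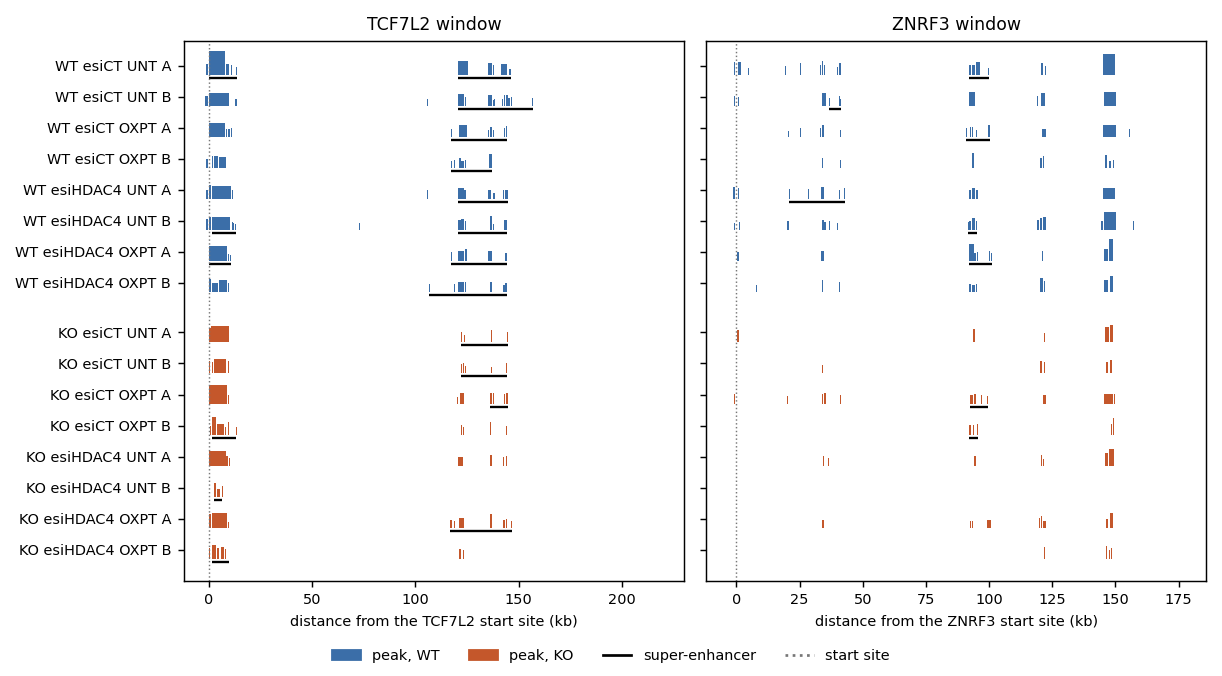
Peaks and SEs of TCF7L2 (left) and ZNRF3 (right) by distance from the start site in kb (horizontal axes) in each library (vertical axis), where bar height is the fold at the summit and the black line below the bars is the SE. TCF7L2 has a block at its start and a group at about 120 to 146 kb whose SE was called in 8 WT and 4 KO libraries, and the ZNRF3 group at 145 to 150 kb carries no SE. Over all genes with an SE, 72.1% had it in more WT than KO libraries.

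AXIN2 (ENSG00000168646.14, minus strand, chr17:65528563-65561648), a scaffold of the destruction complex and a widely used WNT target, was marked at its start and not by an SE. The element there (chr17:65557877-65561922, 4.05 kb, from -0.27 to 3.77 kb) was called in 14 libraries with folds of 3.43 to 7.33. An intronic region next to it (chr17:65556670-65557367) was called in 4 libraries and an upstream one (chr17:65571223-65571561) in 1. In WT libraries the highest fold was 5.93, 4.29, 5.76, 3.62, 5.6, 4.31, 4.62 and 3.43, and in the KO libraries with a peak 7.33, 4.68, 6.31, 4.52, 6.82 and 5.99. Both KO libraries without a peak at AXIN2, esiHDAC4 UNT B and esiHDAC4 OXPT B, had lists of 1752 and 6084 peaks. In the fit that drops missing values, KO exceeded WT by 0.35 on the centred log2 scale (SE 0.118, limma adjusted p = 0.133). In the wider fit, with missing values set to the lowest fold of the list, the difference was -0.057 (adjusted p = 0.887). These fits differ both in the genes kept (5803 and 10411) and in the handling of the 2 KO libraries without a peak. The peak number was 1 to 3 in WT and 0 to 3 in KO (means 2.0 and 1.12, exact permutation p = 0.124).

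The other feedback inhibitor, NKD1 (ENSG00000140807.7, chr16:50548396-50649249), which acts on Dishevelled, had 1 peak in each of 3 libraries, all KO (esiCT UNT A, esiCT OXPT A and esiHDAC4 OXPT A), with folds of 2.92 to 3.72. The exact permutation p for presence in 3 KO against 0 WT libraries was 0.143 (adjusted p = 0.347), in a comparison that called 0% of 11064 genes after adjustment. In 2 of the 3 the peak lay 0.32 to 0.68 kb from the start (chr16:50548717-50549073), and in the third in an intron.

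LGR5 (ENSG00000139292.13, chr12:71439798-71586310), the R-spondin receptor that marks intestinal stem cells, had 1 intronic peak region (chr12:71468966-71469943, 29.17 to 30.14 kb from the start) in 3 libraries, all WT replicate A (esiCT UNT, esiCT OXPT and esiHDAC4 UNT), with folds of 3.51 to 3.76. Presence in 3 WT against 0 KO libraries had the same exact permutation p of 0.143. Of the 11064 genes tested, 14.7% were called in fewer KO libraries at an unadjusted p under 0.05, and 0% passed after adjustment. No peak was called at the LGR5 start in any library.

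The target transcription factors SP5 and ASCL2 were close to bare. SP5 (ENSG00000204335.4, chr2:170715337-170718078) had 1 peak in 1 library, KO esiHDAC4 UNT A, just downstream of the promoter printed above (chr2:170715382-170715691, fold 2.75). ASCL2 (ENSG00000183734.5, chr11:2268498-2270588), a stem cell factor of the intestinal crypt, had 1 peak in each of 3 KO libraries (esiCT OXPT A and B and esiHDAC4 UNT A), at 3 different places, 2 of them downstream of the gene (exact permutation p = 0.214, adjusted p = 0.453). The ASCL2 folds were 3.24 to 4.8, and the comparison of presence by genotype called 0% of 11064 genes after adjustment.

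Of the 3 TCF/LEF genes here, through whose products β-catenin acts, TCF7 and LEF1 had few peaks. TCF7 (ENSG00000081059.20, chr5:134114681-134151865) had 1 peak, 0.59 to 1.13 kb from its start (chr5:134115274-134115815), in 2 WT libraries treated with OXPT (folds 3.48 and 3.6). LEF1 (ENSG00000138795.10, minus strand, chr4:108047545-108168956) had 5 intronic peaks over 4 libraries, all transfected with esiCT (2 WT and 2 KO), with folds of 3.06 to 4.07 and 0 in the 8 esiHDAC4 libraries. The 1 position called in 2 libraries was chr4:108059213-108059507, 109.42 to 109.72 kb from the start, and the others were called once. Presence by silencing had an exact permutation p of 0.0714 (adjusted p = 1.0), in a comparison that called 0% of 11064 genes.

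TCF7L2 (ENSG00000148737.18, plus strand, chr10:112950247-113167678), the main TCF factor of the intestinal epithelium, had 158 peaks over all libraries, in 2 blocks. WT libraries had 12, 15, 13, 10, 11, 14, 8 and 12 peaks and KO libraries 7, 9, 8, 10, 7, 3, 11 and 8, in the order used for ZNRF3. The ranges, 8 to 15 and 3 to 11, overlapped. The mean was 11.9 ± 2.23 in WT and 7.88 ± 2.42 in KO (SD, n = 8), a difference of -4.0 that did not pass after adjustment (exact permutation p = 0.00612, adjusted p = 0.0952). It passed in 1 of the leave-one-out fits, without WT esiCT OXPT B (-4.46, adjusted p = 0.0463, with 0.0463 to 0.136 over these fits), which called 9.35% of all genes. In lists of equal length it was 0.0 (adjusted p = 1.0, with 0.0952 to 1.0 over the settings that kept all libraries).

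The element at the TCF7L2 start (chr10:112950311-112961983, 11.7 kb) was called in all 16 libraries. Its fold was 9.51, 5.01, 5.56, 5.01, 5.51, 5.29, 5.92 and 5.09 in WT and 6.48, 5.71, 7.56, 7.11, 5.85, 5.42, 6.09 and 5.8 in KO. The highest value stood alone in WT esiCT UNT A, and the other 7 WT libraries lay between 5.01 and 5.92. The highest fold of the whole window was 0.18 higher in KO on the centred log2 scale (SE 0.108, interval -0.04 to 0.41, limma adjusted p = 0.489). It differed by 0.16 with OXPT (interval -0.06 to 0.39, adjusted p = 0.88) and by -0.11 with esiHDAC4 (interval -0.34 to 0.11, adjusted p = 0.954).

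Intronic elements at 120.34 to 125.43 kb (chr10:113070586-113075673) and 134.95 to 137.15 kb (chr10:113085201-113087392) were called in 15 and 14 libraries. SEs over this mid-gene block, from 106.52 to 156.79 kb, were called in 8 WT and 4 KO libraries and were 9.04 to 37.7 kb long. Over all genes with an SE, 72.1% had it in more WT than KO libraries. KO libraries without the mid-gene SE included esiCT OXPT B, esiHDAC4 UNT B and esiHDAC4 OXPT B, with lists of 8216, 1752 and 6084 peaks. The part of list length in this split was not tested. SEs over the start block were called in 3 WT and 3 KO libraries, and were 3.94 to 13.5 kb long. KO esiHDAC4 UNT A had neither, while the shortest list, KO esiHDAC4 UNT B, had the 5′ SE. These positions were separated after the SEs had been seen, so no test is given. A region upstream of the start (chr10:112948671-112949933) was called in 5 WT and 0 KO libraries (exact permutation p = 0.0306, adjusted p = 0.258). At an unadjusted p under 0.05, 13.6% of the 20090 regions tested were called in fewer KO libraries. An intronic region at 116.93 kb (chr10:113067173-113068211) was called in 5 OXPT and 0 UNT libraries (exact permutation p = 0.0306, adjusted p = 1.0), beside 1.43% of regions called in more OXPT libraries at an unadjusted p under 0.05. Over the 16 libraries the centred TCF7L2 fold was closest to those of CAMK2D (Pearson's r 0.7), DKK1 and YAP1 (0.62 each), GNAI1 (0.61) and FAM149B1 (0.57), against a median of 0.01 over 483 genes. All points share library and depth, so these values are a description only.

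Counted over the 10 genes, 0 passed the adjusted threshold in any comparison. Of the 2 testable for fold, RNF43 was at an unadjusted limma p under 0.05 for genotype, and of the 8 testable for peak number, ZNRF3 and TCF7L2 were, both with fewer peaks in KO, beside 25.5% of all genes. For OXPT and for esiHDAC4, 0 of the 10 genes were at an unadjusted p under 0.05 by either test. Over all genes, peak number differed with OXPT for 184 of 13778 genes and with esiHDAC4 for 29 at an unadjusted exact permutation p under 0.05, and 0 after adjustment.

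The wider pathway list of 106 genes (ligands, R-spondins, receptors, destruction complex, nuclear cofactors, inhibitors and targets) was acetylated more sparsely than RNF43. In all 16 libraries, 6 genes had a peak: the co-receptor LRP5, the signal relay DVL2, the kinase CSNK1D, the β-catenin cofactors BCL9L and PYGO2, and the secreted inhibitor DKK1. No peak was called at 20 of the 106 genes, beside 4190 of all 20007 genes, a similar share. The median number of libraries with a peak was 7.5 over the list and 8.0 over all genes. SEs were called at 18 genes, in more WT than KO libraries for 16, in more KO libraries for 1 and in as many for 1. Over all genes an SE was called at 1617 of 20007, in more WT libraries for 1166 (72.1%), in more KO libraries for 266 and in as many for 185. BCL9L had an SE in 15 libraries, CD44 in 9 and DKK1 and FOSL1 in 8 each. Peak number was lower in KO for 61 of 67 genes tested and higher for 3, with a median difference of -0.75. Over all 13778 genes tested 91.3% were lower in KO, with a median of -0.625, so this split was near that of all genes. The lowest p belonged to the corepressor CTBP2 (difference -5.38) and to PPARD, a target (-4.25), both at the smallest possible exact permutation p of 4.08e-04 and an adjusted p of 0.073, so that 0 of 67 passed.

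For summit fold, 0 of the 6 testable list genes passed in any comparison (limma). DKK1 had a log2 difference of 0.26 with OXPT (SE 0.1, limma adjusted p = 0.632), followed by PYGO2 with 0.25 (limma adjusted p = 0.745). CSNK1D differed by -0.3 with esiHDAC4 (SE 0.11, limma adjusted p = 0.954). For genotype CSNK1D (-0.19) and BCL9L (-0.1) were the 2 nearest to the threshold (limma adjusted p = 0.492 and 0.74). By presence of a peak, the receptor FZD5 was called in 6 WT and 0 KO libraries (exact permutation p = 0.0102, adjusted p = 0.233) and TNKS2, a tankyrase that destabilises AXIN, in 8 WT and 3 KO libraries (p = 0.0143, same adjusted p, exact permutation). At an unadjusted p under 0.05, 14.7% of the 11064 genes tested were called in fewer KO libraries. MYC, a target, had 2.0 more peaks with OXPT (exact permutation p = 0.06, adjusted p = 1.0).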

How the data were processed

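H3K27ac ChIP-seq of 16 libraries was used; data of 4 input samples were not used here. For the authors' files, trimming used Trimmomatic 0.39, alignment Bowtie2 2.4.4 on hg38, removal of duplicates SAMtools 1.18 and peak calling in each library MACS2 2.2.7.1, and ROSE joined peaks into SEs (versions from the submitters' processing notes). The study kept SEs that also carried H3K4me1, and it was not settled whether the deposited SE lists precede that step. In the deposited peak lists the fold is the ratio of summit pileup to local background with a pseudocount, p and q are −log10 values, and the score is an integer made from q. The deposited SE lists hold positions only.

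The genes and lists were chosen with earlier results of these data known. Gene bodies came from GENCODE version 44 on hg38, and 533 peaks and 28 SEs outside the main chromosomes were left out, leaving 271550 peaks and 8295 SEs. Peaks were merged across libraries where they shared at least 1 bp. Highest summit folds per gene (484 genes) and per region (472) present in all libraries were log2-transformed without a further pseudocount, centred on the library median and fitted with limma 3.58.1 in R 4.3.3 on group and replicate letter, the letter being part of the study's own design. Peak number (13778 genes with a peak in at least 3 libraries), presence of a peak (11064 genes called in 3 to 13 libraries), presence of an SE (739) and of a region (20090) were tested with two-sided exact permutations of labels within letters (4900 arrangements, smallest p 4.08e-04). All p-values were adjusted by Benjamini-Hochberg over all features of a test, with a threshold of 0.05. Both procedures were tested on simulated data. Summit reads were recovered as whole numbers from fold and p (within 0.05 reads) in 15 libraries and not in WT esiCT UNT B, where 9.7% came out whole. The lists give no read totals, so intervals cover the spread of libraries only. Distances were measured from the start of the canonical transcript. Scripts ran in Python 3.11.15 with numpy 2.4.6, pandas 2.3.3 and scipy 1.17.1.

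All 10 genes are named, with the 5 genes whose centred fold was most like that of TCF7L2, while those most like RNF43 are not reported here. Of their regions, those called in all libraries, those over a start site and the 3 called in most libraries per window are named, and of the pathway list those past the threshold or else the 2 with the smallest p. Other regions were named after their values were seen, as were list genes with an SE in at least 8 libraries. The alternatives tried were folds without centring, quantile normalization, folds without the pseudocount, no replicate block, other windows and overlaps, other filters, a −log10 q of at least 10, sums of folds, lists of equal length and each library left out.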

Additional observations from a re-analysis of the deposited data

Results flagged for a closer look

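With esiCT, the deposited RNF43 fold moved in opposite directions with OXPT in the genotypes. It was lower in both WT libraries after OXPT (5.3 and 5.97) than in either untreated one (6.99 and 8.28), a mean change of -2.0. In KO it was higher in both (9.36 and 7.63 against 6.9 and 7.29), a mean change of 1.4. The 5.97 of WT esiCT OXPT B came from the start of SUPT4H1, 64.51 kb from the RNF43 start. At the 22.6 kb element the WT folds were 6.91 and 8.28 untreated and 4.87 and 5.61 with OXPT. Its KO folds were 6.9 and 7.29 untreated and 9.36 and 7.63 with OXPT. The difference in the deposited highest folds was picked out because every library moved that way, and on that linear scale it was not tested. The median fold of all tested genes moved with it, from 7.67 and 6.78 to 5.67 and 4.96 in WT and from 5.88 and 5.37 to 6.24 and 5.67 in KO. After centring on these medians, the WT values were -0.13 and 0.29 untreated and -0.1 and 0.27 with OXPT, and the KO values 0.23 and 0.44 untreated and 0.59 and 0.43 with OXPT. The log2 difference between the responses was 0.69 without centring (limma adjusted p = 0.124) and 0.16 with it (limma adjusted p = 0.943).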

How the results depend on the processing

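Of 520 values recomputed under other settings with all libraries kept, 476 held their direction and side of the threshold, 1 newly passed, 31 turned direction and 12 counts moved by over 1.5 times. Of 1274 values with 1 library left out, 1231 held, 3 newly passed, 34 turned and 6 moved. The causes were not tested. The lists give no read totals, so a missing peak in a short list cannot be read as missing acetylation.

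RNF43 fold, KO against WT, passed at 0.31 (adjusted p = 0.0462, limma) where genes with a peak in at least 8 libraries were fitted, so that 1 of the 4 genes tested there passed, beside 13.8% of all 10411 genes. Its OXPT difference was -0.13 without centring, -0.02 in the gene body and -0.01 at its own start sites, and its esiHDAC4 difference 0.01 at those sites. In WT esiCT, OXPT gave -0.44 without centring, -0.01 with quantile normalization, -0.06 in the gene body, -0.23 at own start sites, -0.07 without peaks at other starts and -0.00064 where 50% of a peak had to lie in the window. Sums of folds gave -0.54 for OXPT in KO esiCT, -0.79 for the difference of the OXPT responses, 0.18 and -0.06 for esiHDAC4 in KO and WT with OXPT, and 0.24 for their difference. For esiHDAC4 in WT with OXPT the value was also -0.03 without the pseudocount and -0.01 in the gene body. KO against WT in untreated esiCT was -0.1 without centring, and the TCF7L2 start element with OXPT -0.0037.

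Genes past 0.05 by genotype, 1 as reported, were 6 without centring, 0 in gene bodies and at own start sites, 4 without peaks at other starts, 30 and 1433 with peaks in at least 12 and 8 libraries, and 33 for sums. For OXPT, 0 as reported, they were 14, then 1 and 4 under these filters, and 1 for sums.

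Peak number differences turned to 0.125 (−log10 q of at least 10) and 4.12 (equal lists) for RNF43 by genotype and to 0.25 for AXIN2 under both. For OXPT they turned to -1.12 (RNF43) and -0.75 (TCF7L2) under the q limit, and for ZNRF3 to 0.375 in equal lists and 0.125 in the gene body. For esiHDAC4, equal lists gave 0.125 (RNF43), 0.125 (ZNRF3) and 0.75 (TCF7L2), and the q limit 0.375 (ZNRF3).

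With 1 library left out, the RNF43 fold ranged from 0.25 to 0.37 for genotype (adjusted p 0.0633 to 0.255, limma), -0.02 to 0.09 for OXPT, -0.11 to 0.12 for OXPT in WT esiCT, -0.05 to 0.39 in KO esiCT, -0.06 to 0.39 for their difference and -0.08 to 0.1 for esiHDAC4 in WT with OXPT. The 22.6 kb element ranged from -0.12 to 0.01 for OXPT. Genes past 0.05 ranged from 1 to 6 by genotype (2 without WT esiHDAC4 OXPT B, 6 without KO esiCT OXPT B, 4 without KO esiHDAC4 UNT B) and from 0 to 1 for OXPT (1 without KO esiHDAC4 UNT B). Peak number ranged, for RNF43, from -2.12 to 1.21 by genotype, -1.29 to 2.04 for OXPT and -2.29 to 0.208 for esiHDAC4. For ZNRF3 it ranged from -7.12 to -5.5, -1.67 to 1.33 and -2.67 to 0.333, for TCF7L2 from -4.5 to -3.25 by genotype and -0.958 to 1.04 for OXPT, for AXIN2 from -0.125 to 0.417 for OXPT, and for LEF1 from -0.208 to 0.125 by genotype and -0.25 to 0.0833 for OXPT. Presence of a LEF1 peak ranged from -0.0833 to 0.125 by genotype and -0.125 to 0.0833 for OXPT, and an SE at ZNRF3 from -0.125 to 0.125 for OXPT. For peak number by genotype 0 to 2 of the 10 genes passed, 2 without WT esiCT OXPT B (9.35% of all genes) and 1 without KO esiCT OXPT A (4.94%).

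The replicate block was kept because the study's methods use it. Over 28 pairs of groups, deviations of same-letter libraries correlated from -0.117 to 0.402 (median 0.115), above 0.1 in 15, so the letters were not shown to pair the libraries. With no replicate block, the RNF43 genotype difference was 0.31 (limma adjusted p = 0.234) and the ZNRF3 peak number difference -6.5 (exact permutation, adjusted p = 0.123), and no call changed for the 10 genes.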
